A study of Mus musculus with 9 samples.

Results

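The genes of the NRF2 and aryl hydrocarbon receptor (AHR) responses were examined in mouse back skin. The group held 10 genes, chosen by name from the 29205 genes of the table. Nfe2l2, Nqo1, Hmox1, Gclm, Srxn1 and Txnrd1 stood for NRF2, and Ahr, Ahrr, Cyp1a1 and Cyp1b1 for AHR. All 10 were found, and all 10 passed the filter on low counts in each comparison. RNA came from the skin of male BALB/c mice aged 6 to 8 weeks, with 3 libraries in each of 3 groups. All groups had 7 days to settle in and had the back shaved and treated with a hair-removing cream. The control group received neither the imiquimod cream nor the soup described next. In the IMQ group, 62.5 mg of cream with 5% imiquimod (IMQ), a Toll-like receptor agonist that gives psoriasis-like lesions, was put on the back each day for 5 days. The LYS group received the same cream and Longkui Yinxiao soup (LYS), a decoction of plant drugs. Per the methods of the study it was given by gavage, and the sequenced skin came from its high-dose group, while the sample labels name no dose. No sequenced group received LYS without IMQ. Skin was taken on day 13 in all groups.

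The libraries held between 14658645 (LYS 1) and 19609878 (control 2) counts on genes. Unless FPKM is named, values compared between groups are CPM, the counts scaled to library size with TMM factors. Values compared between genes are the deposited FPKM, which are per length. Sums over cell type marker lists are FPKM and leave out the TMM factors, which ran from 0.825 (IMQ 3) to 1.18 (control 3). Intervals are edgeR 95% confidence intervals, and SE is the standard error of a log2 fold change. A gene was called when the edgeR adjusted p was under 0.05 and the absolute log2 fold change was over 0.58. All 10 genes are annotated as protein-coding, and their positions are those of GRCm38. The study describes the 3 skin samples of a group as biological replicates, without tying each library to a mouse, and the p-values measure the spread between these samples. Libraries of 1 group differed by more than sampling noise, which gives a chi-square near 1 per degree of freedom, with values from 18.4 (IMQ 2 and IMQ 3) to 109.5 (LYS 1 and LYS 3).

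NRF2, encoded by Nfe2l2, is a transcription factor that the adaptor KEAP1 holds for degradation in resting cells. When oxidants or electrophiles modify KEAP1, NRF2 builds up, pairs with small MAF proteins at antioxidant response elements and switches on genes for glutathione, thioredoxin, quinone and haem metabolism. AHR is a ligand-activated transcription factor that pairs with ARNT at xenobiotic response elements, and in skin it is known for its part in keratinocyte differentiation, barrier genes and the response to pollutants and tryptophan metabolites.

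In control skin, Hmox1 had the highest level of the 10 genes (53.4 ± 15.0 FPKM, SD, n = 3), and its lowest library was above every library of the next gene. Nfe2l2 (18.1 ± 1.68), Txnrd1 (17.3 ± 1.48), Srxn1 (14.5 ± 2.07) and Cyp1b1 (12.1 ± 1.19) followed in FPKM, and each of these neighbours overlapped over the libraries. Gclm (8.58 ± 0.115 FPKM) and Nqo1 (6.01 ± 0.169 FPKM) were lower and did not overlap their neighbours. Ahr (4.89 ± 0.858 FPKM) and Cyp1a1 (4.46 ± 1.63 FPKM) overlapped each other. Ahrr was the lowest of the 10 at 0.344 ± 0.0761 FPKM.

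The order at both ends was the same in the other groups, with Hmox1 first at 82.9 ± 16.3 FPKM under IMQ and 65.8 ± 2.20 under LYS, and Ahrr last at 0.524 ± 0.108 and 0.759 ± 0.225. In the IMQ group the places between them went from Nfe2l2 (35.5 ± 0.927 FPKM) through Txnrd1 (29.5 ± 6.69), Srxn1 (23.8 ± 2.50), Nqo1 (12.2 ± 2.28), Ahr (8.42 ± 0.996), Gclm (5.70 ± 0.738) and Cyp1b1 (5.55 ± 0.309) to Cyp1a1 (1.64 ± 0.166). Neighbours overlapped there for Nfe2l2 and Txnrd1, for Txnrd1 and Srxn1, and for Gclm and Cyp1b1. The LYS group held the FPKM order Nfe2l2 (35.3 ± 2.79), Txnrd1 (24.0 ± 6.79), Srxn1 (21.4 ± 0.162), Nqo1 (11.2 ± 3.06), Ahr (8.81 ± 1.82), Cyp1b1 (7.82 ± 1.70), Gclm (6.06 ± 0.122) and Cyp1a1 (2.82 ± 1.22). There the neighbours from Nqo1 to Gclm overlapped, as did Txnrd1 and Srxn1.

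The IMQ group was first compared with the control group to see what the psoriasis-like model does to these genes. Of the 10 genes, 7 were called higher in IMQ skin, namely Nfe2l2, Nqo1, Hmox1, Srxn1, Txnrd1, Ahr and Ahrr, and 2 were called lower, Cyp1a1 and Cyp1b1. Gclm was not called. Among all 15976 genes tested, 24.1% were called higher and 26.9% lower, and a call by itself does not set a gene apart. The median log2 fold change was 1.19 over the 6 NRF2 genes and 0.18 over the 4 AHR genes, against -0.06 over all genes tested. The 10 genes were chosen by name with earlier results of these data known. In each comparison, their counts and medians beside those of all genes are therefore a description.

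The LYS group was then compared with the IMQ group, which addresses what the soup changed in treated skin. None of the 10 genes was called by edgeR, where 0% of the 15460 genes tested were called higher and 0% lower. At an unadjusted edgeR p under 0.05, 2 of the 10 genes were lower in the LYS group, Hmox1 and Srxn1, and 0 were higher, against 15.9% of all genes lower and 19.3% higher. The same 2 genes were those whose CPM did not overlap between the groups, both lower, where the groups did not overlap for 19.3% of all genes in the lower and 19.2% in the higher direction. DESeq2 called 1 of the 10 genes lower, Hmox1, and 0 higher, against 9.49% of genes lower and 13.3% higher. The edgeR count over all genes moved with single libraries and with settings. It was 1873 without IMQ 1, Hmox1 among them, 4262 without LYS 1, with 0 of the 10 genes, 2419 without the low-count filter and 3040 with all 9 libraries in 1 fit. The median log2 fold change was -0.39 over the NRF2 genes and 0.27 over the AHR genes, against 0.04 over all genes.

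The LYS group was also set against the control group. Here 5 of the 10 genes were called higher, Nfe2l2, Nqo1, Srxn1, Ahr and Ahrr, and 0 were called lower, against 15.1% higher and 12.9% lower of the 16003 genes tested. Single libraries moved these calls. Without control 1, Nfe2l2 alone was called higher, without control 3 Nfe2l2 and Ahr were, and without LYS 3 Txnrd1 was called as well. Over all genes, 1502 were called higher and 1077 lower without control 1, against 2412 and 2064 with all libraries. At an unadjusted edgeR p under 0.05 the counts were 6 higher and 2 lower of the 10, against 23% higher and 21.4% lower of all genes. DESeq2 called 5 higher and 0 lower, against 14.1% higher and 12.4% lower. The median log2 fold change was 0.67 over the NRF2 genes and 0.26 over the AHR genes, against -0.01 over all genes. The comparisons share libraries, and each is given by its own values.

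**Figure D1:**
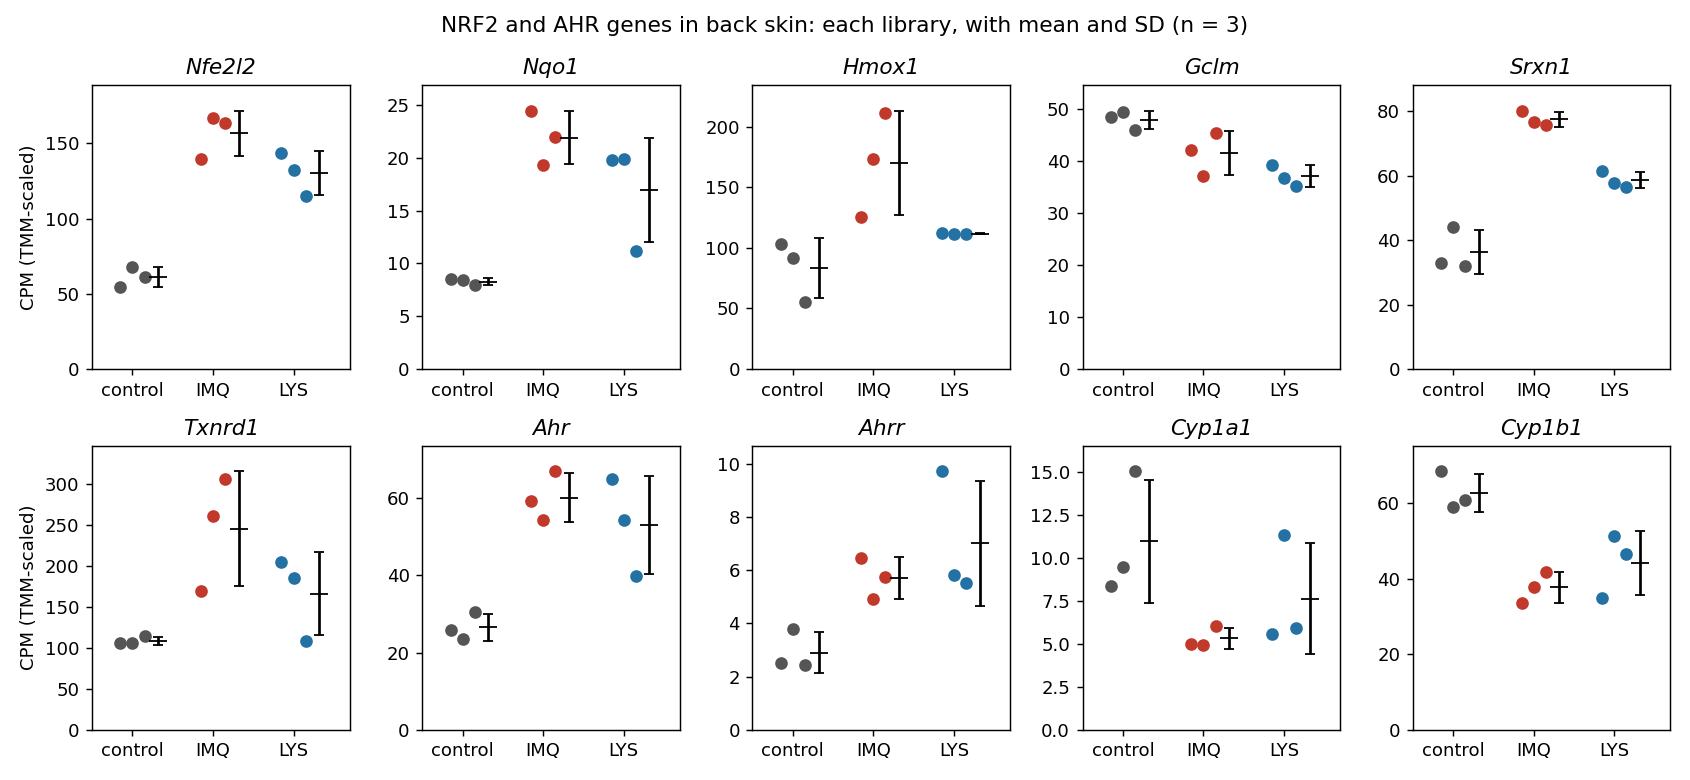
CPM (TMM-scaled, vertical axis from 0) of the 10 genes in each library of the control, IMQ and LYS groups, with the mean and SD of each group (n = 3) as a bar beside the points. Nfe2l2, Nqo1, Hmox1, Srxn1, Ahr and Ahrr lay above the control libraries in both treated groups, while Gclm and Cyp1b1 lay below them on this scale.

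Nfe2l2 (ENSMUSG00000015839, chr2:75675513-75704641, minus strand), the gene of NRF2 itself, had 54.3, 67.5 and 61.1 CPM in the control libraries, 139.6, 167 and 164 CPM in the IMQ libraries and 144, 132 and 115 CPM in the LYS libraries. Every IMQ and every LYS library was above every control library, and the LYS range reached into the IMQ range through LYS 1. Nfe2l2 rose 2.68-fold in the IMQ group, a log2 fold change of 1.42 (SE 0.13, edgeR adjusted p = 7.3e-05). It was also higher in the LYS group than in the control group, by 1.11 (SE 0.15, edgeR adjusted p = 0.00249). Between the LYS and IMQ groups the log2 fold change was -0.26, with a 95% confidence interval from -0.59 to 0.06 (edgeR adjusted p = 0.213). In this bulk tissue, more cells of a type that expresses a gene and more RNA per cell cannot be told apart, and neither can fewer cells and less RNA per cell.

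Nqo1 (ENSMUSG00000003849, chr8:107388225-107403206, minus strand) encodes a quinone reductase and is among the best known NRF2 targets. Its CPM was 8.50, 8.42 and 7.92 in the control libraries, 24.4, 19.4 and 22.0 in the IMQ libraries and 19.8, 19.9 and 11.2 in the LYS libraries. The control libraries were tightly grouped below all others, and LYS 3 lay between them and the other treated libraries. The gene rose by 1.47 on the log2 scale in the IMQ group (SE 0.15, edgeR adjusted p = 1.2e-04) and was higher by 1.05 in the LYS group than in the control group (SE 0.25, edgeR adjusted p = 0.0184). The second call was lost when any control library or LYS 2 was left out, with edgeR adjusted p of 0.0639, 0.0608 and 0.0608 without control 1, 2 and 3 and 0.0690 without LYS 2, in a range from 0.00169 to 0.0690 over the 12 alternatives. From IMQ to LYS the log2 fold change was -0.37 (95% confidence interval -0.94 to 0.20, edgeR adjusted p = 0.303), and the groups overlapped. With single libraries left out it ran from -0.50 (without LYS 1) to -0.14 (without LYS 3).

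Hmox1 (ENSMUSG00000005413, chr8:75093621-75100589, plus strand) encodes haem oxygenase, which opens the haem ring. The control libraries held 103, 91.9 and 55.2 CPM, the IMQ libraries 126, 173 and 212 CPM and the LYS libraries 112, 111 and 112 CPM. The control and IMQ libraries were spread widely, and the LYS libraries lay close together. In CPM the groups were ordered without overlap from control over LYS to IMQ, while in FPKM the LYS libraries overlapped both other groups. Hmox1 rose in the IMQ group by 1.09 (SE 0.26, edgeR adjusted p = 0.00741). Its log2 fold change between the LYS and IMQ groups was -0.60 (SE 0.19) with an edgeR adjusted p of 0.0820, over the threshold. It was called lower by DESeq2 (-0.62, DESeq2 adjusted p = 0.0352) and by edgeR without IMQ 1 (-0.79, adjusted p = 0.0409), and over all alternatives the adjusted p ran from 0.0352 to 0.246. Against the control group the LYS group gave 0.43 (95% confidence interval -0.09 to 0.95, edgeR adjusted p = 0.173). This value was 0.21 without control 3 and 0.60 without control 1.

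Srxn1 (ENSMUSG00000032802, chr2:152105516-152111376, plus strand) encodes sulfiredoxin, which repairs overoxidised peroxiredoxins. It had 33.0, 44.1 and 31.8 CPM in the control libraries, 80.2, 76.6 and 75.9 in the IMQ libraries and 61.4, 57.8 and 56.5 in the LYS libraries. The LYS libraries lay between the other groups, and no pair of groups overlapped. The rise in the IMQ group was 1.16 on the log2 scale (SE 0.14, edgeR adjusted p = 2.8e-04). From IMQ to LYS the log2 fold change was -0.40 (SE 0.10, edgeR adjusted p = 0.0612), and DESeq2 gave -0.42 with an adjusted p of 0.00991, where the size stayed under the fold threshold. The adjusted p over the alternatives ran from 0.00991 to 0.340. The LYS group was above the control group by 0.70 (SE 0.16, edgeR adjusted p = 0.0141), a call that was lost without control 1 (edgeR adjusted p = 0.0619), without control 3 (edgeR adjusted p = 0.0512) and, by its size of 0.56, with library totals as the only scaling. Relative to the median of all genes it was 0.71 under either scaling. The adjusted p ran from 0.00200 to 0.0619.

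Txnrd1 (ENSMUSG00000020250, chr10:82833951-82897712, plus strand) encodes the cytosolic thioredoxin reductase. Its levels were 106, 106 and 114 CPM in the control libraries, 169, 261 and 306 CPM in the IMQ libraries and 205, 186 and 108 CPM in the LYS libraries. IMQ 1 was the lowest IMQ library, and LYS 3 lay within the control range while LYS 1 and LYS 2 lay within the IMQ range. Txnrd1 rose in the IMQ group by 1.23 (SE 0.21, edgeR adjusted p = 0.00137). The LYS group differed from the IMQ group by -0.56 (95% confidence interval -1.27 to 0.15, edgeR adjusted p = 0.222) and from the control group by 0.63 (95% confidence interval 0.06 to 1.21, edgeR adjusted p = 0.0872). Without LYS 3 the comparison with the control group was called (0.88, edgeR adjusted p = 0.00435, in a range from 0.00435 to 0.217 over the alternatives).

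Gclm (ENSMUSG00000028124, chr3:122245557-122270732, plus strand) encodes the modifier subunit of glutamate-cysteine ligase, the first enzyme of glutathione synthesis. It had 48.4, 49.4 and 45.9 CPM in the control libraries, 42.2, 37.1 and 45.4 CPM in the IMQ libraries and 39.3, 36.8 and 35.2 CPM in the LYS libraries. The control libraries were the highest and did not overlap the others, while the IMQ and LYS ranges overlapped. On the log2 scale the IMQ group differed from the control group by -0.14 (95% confidence interval -0.41 to 0.12, edgeR adjusted p = 0.294), the LYS group from the IMQ group by -0.16 (95% confidence interval -0.45 to 0.12, edgeR adjusted p = 0.366) and the LYS group from the control group by -0.36 (95% confidence interval -0.64 to -0.07, edgeR adjusted p = 0.0594). Of its 6291 exon bases, 540 are shared with the annotated genes Gm17494, on the opposite strand, and Gm6061. Whether the counting used strand is not given in the sources used here, so reads from the bases shared with Gm17494 cannot be told apart. Gm6061 lies on the same strand as Gclm, where strand would not separate the reads in either case.

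Scaling changed the call of Gclm. With library totals as the only scaling, the median log2 fold change of all genes moved from -0.06 to -0.51 in the IMQ group against the control group, from 0.04 to 0.29 between the LYS and IMQ groups and from -0.01 to -0.15 between the LYS and control groups. Gclm was then called lower in the IMQ group (-0.59, edgeR adjusted p = 0.00472, in a range from 0.00472 to 0.679 over the alternatives), which is -0.08 relative to that median. Relative to the same median, the 7 genes called higher lay 1.11 to 1.53 above it, Cyp1a1 at -0.93 and Cyp1b1 at -0.62. Between the LYS and IMQ groups this scaling turned Gclm to 0.09 and Ahr to 0.07, which are -0.20 and -0.22 relative to the median.

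Ahr (ENSMUSG00000019256, chr12:35497974-35535038, minus strand), the receptor gene, had 25.8, 23.5 and 30.4 CPM in the control libraries, 59.4, 54.2 and 66.9 CPM in the IMQ libraries and 65.1, 54.3 and 39.8 CPM in the LYS libraries. All treated libraries were above the control libraries, and LYS 3 was the lowest of them. Ahr rose 2.36-fold in the IMQ group, a log2 fold change of 1.24 (SE 0.14, edgeR adjusted p = 2.1e-04). In the LYS group it was higher than in the control group by 1.01 (SE 0.22, edgeR adjusted p = 0.0123), and without control 1 the edgeR adjusted p was 0.0516, in a range from 4.9e-04 to 0.0516 over the alternatives. Against the IMQ group it was -0.18 (95% confidence interval -0.63 to 0.27, edgeR adjusted p = 0.528), with -0.01 when LYS 3 was left out and -0.36 when LYS 1 was. The antisense gene Gm48236 shares 127 of its 6163 exon bases.

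Ahrr (ENSMUSG00000021575, chr13:74211118-74292331, minus strand) encodes the AHR repressor, itself induced by AHR, which competes for the partner ARNT. This gene rested on the fewest reads of the 10, with 49 to 141 counts per library. Its CPM was 2.49, 3.78 and 2.43 in the control libraries, 6.46, 4.91 and 5.73 in the IMQ libraries and 9.72, 5.81 and 5.52 in the LYS libraries. LYS 1 was the highest library, the other LYS libraries fell within the IMQ range, and the control libraries were below all of them. Ahrr rose by 1.04 in the IMQ group (SE 0.26, edgeR adjusted p = 0.00894), and this call was lost with library totals as the only scaling (0.60, edgeR adjusted p = 0.0800, in a range from 0.00180 to 0.0800). The LYS group exceeded the control group by 1.29 (SE 0.33, edgeR adjusted p = 0.0214), which was lost without control 1 (edgeR adjusted p = 0.0836) and without control 3 (edgeR adjusted p = 0.0717), in a range from 0.00241 to 0.0836. Between LYS and IMQ the log2 fold change was 0.30 (95% confidence interval -0.38 to 0.97, edgeR adjusted p = 0.479), and -0.01 without LYS 1.

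Cyp1a1 (ENSMUSG00000032315, chr9:57687928-57703824, plus strand) encodes the cytochrome P450 enzyme most often used as a readout of AHR activity, and here it rested on 69 to 303 counts per library. It had 8.35, 9.46 and 15.0 CPM in the control libraries, 4.98, 4.91 and 6.02 CPM in the IMQ libraries and 5.58, 11.3 and 5.93 CPM in the LYS libraries. The IMQ libraries were below all control libraries, control 3 stood highest, and LYS 2 alone of the LYS libraries lay within the control range. Cyp1a1 fell in the IMQ group, with a log2 fold change of -0.99 (SE 0.26, edgeR adjusted p = 0.0120). The LYS group gave 0.53 against the IMQ group (95% confidence interval -0.23 to 1.28, edgeR adjusted p = 0.270) and -0.51 against the control group (95% confidence interval -1.31 to 0.28, edgeR adjusted p = 0.283). Both intervals span 0. Without LYS 2 the values were 0.13 and -0.91, and without control 3 the second was -0.22.

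Cyp1b1 (ENSMUSG00000024087, chr17:79701537-79715061, minus strand) encodes another AHR-induced P450 enzyme. Its CPM was 68.4, 58.9 and 61.0 in the control libraries, 33.5, 37.9 and 41.8 in the IMQ libraries and 34.8, 51.3 and 46.5 in the LYS libraries. All treated libraries were below the control libraries, and LYS 1 lay within the IMQ range. The fall in the IMQ group had a log2 fold change of -0.67 (SE 0.12, edgeR adjusted p = 0.00198). Without IMQ 1 it was -0.58 (edgeR adjusted p = 0.00429, in a range from 2.0e-04 to 0.0113), just under the fold threshold. The LYS group was at -0.50 against the control group (edgeR adjusted p = 0.0438), where the p passed and the size did not. With library totals as the only scaling this value was -0.63 (edgeR adjusted p = 0.0339, in a range from 0.0289 to 0.163) and was called, while relative to the median of all genes it was -0.49 under either scaling. Against the IMQ group the log2 fold change was 0.23 (95% confidence interval -0.17 to 0.63, edgeR adjusted p = 0.353).

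Among the AHR genes, the receptor and its repressor thus had higher levels in the IMQ group while both P450 genes had lower ones. The difference in response between these pairs of genes was not tested. Within the LYS group, LYS 3 held the lowest CPM for 7 of the 10 genes and the highest for 0, while LYS 1 held the highest for 7 and the lowest for 2. IMQ 3 was the highest IMQ library for 6 genes.

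**Figure D2:**
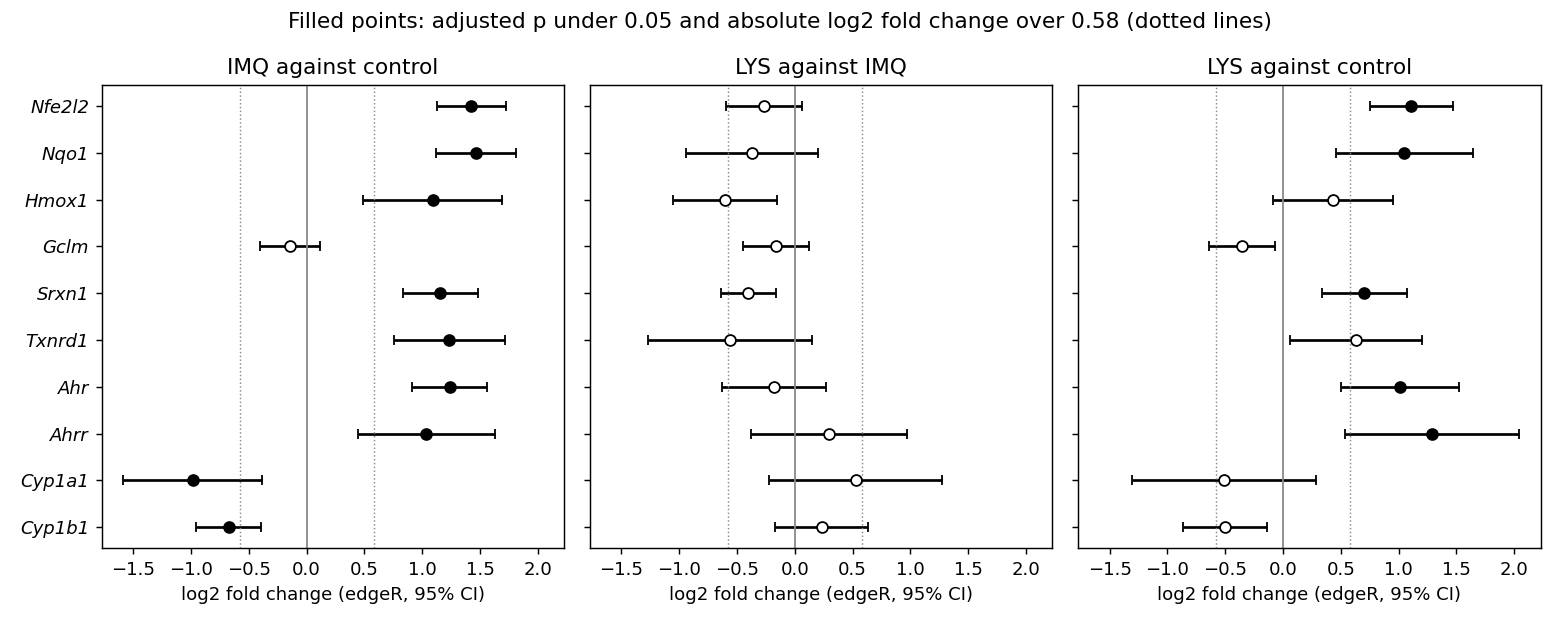
Log2 fold change of each gene (horizontal axis) in the 3 comparisons, with the 95% confidence interval from edgeR as a bar, filled where the gene was called, and with dotted lines at the fold threshold of 0.58. In the LYS against IMQ panel no point is filled, and the intervals of Hmox1 and Srxn1 alone lie on 1 side of 0.

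Promoters of these genes were searched for the core letters of both response elements. The genes were chosen by name for the NRF2 and AHR responses, so matches above the share of all promoters say nothing of their levels here. RefSeq promoters (GRCm38.p6, 250 bases before to 50 after the start) were at hand for 8 of the 10 genes, with 3 starts for Txnrd1. The antioxidant response element core TGACNNNGC (ARE) was searched on both strands and was found in 12.4% of the 32851 promoters of the table. It matched in 4 of the 10 promoters, those of Nfe2l2, Srxn1, Gclm and, at its second start, Txnrd1. Of these, Gclm was the gene not called in IMQ skin. The windows of 30 bases hold these matches in capitals, 5′ to 3′ on the strand of the gene.
Nfe2l2, chr2:75704884-75704913, minus strand: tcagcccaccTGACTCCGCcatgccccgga
Srxn1, chr2:152105542-152105571, plus strand: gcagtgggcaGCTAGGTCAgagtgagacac
Gclm, chr3:122245413-122245442, plus strand: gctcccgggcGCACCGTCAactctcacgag
Txnrd1, chr10:82859104-82859133, plus strand: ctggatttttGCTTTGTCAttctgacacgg

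The xenobiotic response element core GCGTG (XRE) was searched in the same way and was found in 32.4% of the promoters. It matched in 8 of the 10 promoters, from 6 of the 8 genes. Cyp1a1 and Cyp1b1, which fell in IMQ skin, held 1 match each, and Ahrr, which rose, held 3. Srxn1 held 2 matches, Gclm 3, and Txnrd1 at least 1 at each of its 3 starts, while the Nfe2l2 and Nqo1 windows held 0. The windows of the AHR genes are given with the core in capitals, which reads CACGC where it lies on the opposite strand.
Cyp1a1, chr9:57697547-57697576, plus strand: tcagataaggagGCGTGgccaacagacaca
Cyp1b1, chr17:79715120-79715149, minus strand: cgtcccgcccctCACGCcccaccccctaag
Ahrr, chr13:74292421-74292450, minus strand: tattgaaagggcGCGTGgcaggcagggaca
Ahrr, chr13:74292396-74292425, minus strand: ggacaaggatgtGCGTGcgccctctgccgc
Ahrr, chr13:74292341-74292370, minus strand: gcggggcggctcGCGTGctggggtggggct
A match describes letters and not a bound site, and a window without one says nothing of elements farther away.

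**Figure D3:**
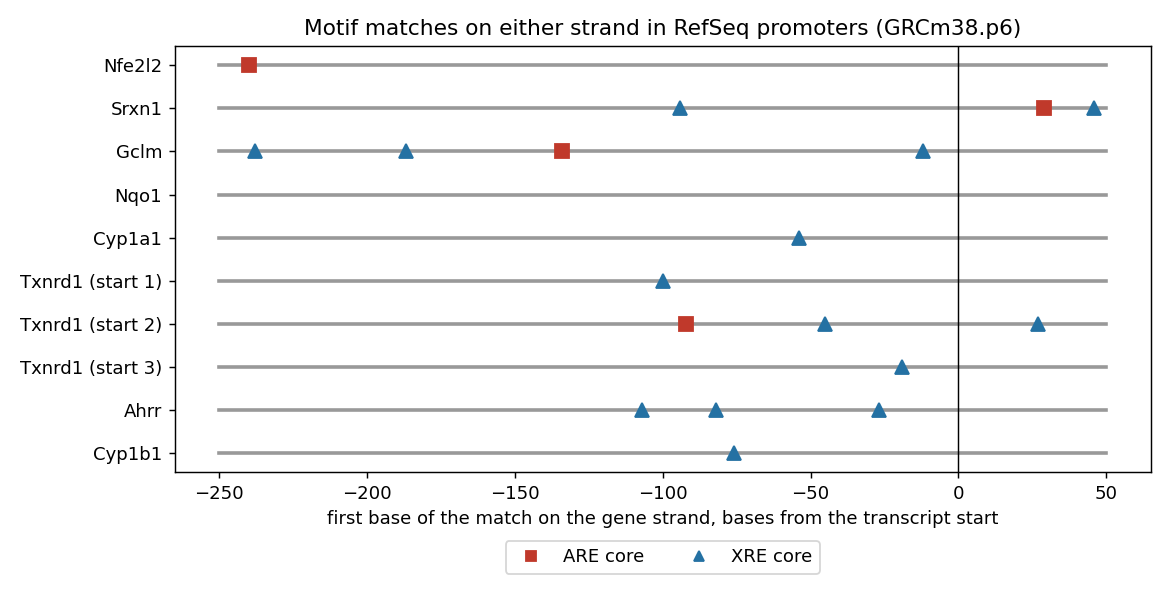
Position of the first base of each match, in bases from the transcript start (horizontal axis), in the RefSeq promoters of 8 genes, with Txnrd1 at its 3 starts, as squares for the ARE core and triangles for the XRE core. Matches of both cores occur in Srxn1, Gclm and the second start of Txnrd1, and the Nqo1 window holds none.

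The other genes of both pathways were read from 11 lists with 177 genes, of which 176 were in the table. In the IMQ group against the control group, 49 of the 162 tested were called higher and 55 lower, against 24.1% and 26.9% of all genes. Their median log2 fold change was 0.02. Between the LYS and IMQ groups 0 of 158 were called by edgeR. At an unadjusted edgeR p under 0.05, 45 were higher and 31 lower, against 19.3% and 15.9% of all genes. DESeq2 called 30 higher and 16 lower, against 13.3% and 9.49% of all genes. Without IMQ 1, edgeR called 10 higher and 10 lower between LYS and IMQ, against 1077 higher and 796 lower of all 15840 genes tested. Without LYS 1 it called 39 higher and 28 lower, against 2370 and 1892 of all 15895 genes tested. Between the LYS and control groups 33 of 160 were called higher and 26 lower, against 15.1% and 12.9% of all genes. The lower count was 12 without control 1 and 14 without control 2 or LYS 2, while the higher count ran from 25 (without control 1) to 38 (without LYS 3). Over all genes, those lower counts were 1077 (without control 1), 1319 (without control 2) and 1150 (without LYS 2). The higher counts over all genes were 1502 (without control 1) and 2739 (without LYS 3). The counts of each list below are read beside the same shares of all genes, and a count near its share does not set a list apart. As the lists were chosen with earlier results of these data known, such contrasts are a description. With library totals as the only scaling, list medians and counts move with the shift of all genes given for Gclm. Adjusted p given for named genes are those of edgeR with TMM scaling.

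Of the genes that control NRF2, 4 of 12 tested genes were called higher and 2 lower in the IMQ group, with a median of 0.31. Bach2, a repressor that competes at the same elements, fell from 44.0 ± 2.27 to 2.51 ± 0.394 CPM (SD, n = 3), a log2 fold change of -4.07 (edgeR adjusted p = 4.1e-06). Maff, a small MAF partner, rose from 14.3 ± 2.20 to 101 ± 31.5 CPM (2.89, edgeR adjusted p = 6.2e-05), and Bach1, the other BACH repressor, rose from 56.7 ± 4.11 to 125 ± 17.0 CPM (1.20, edgeR adjusted p = 1.7e-04). Keap1, named for its role and outside the rule, was not called (0.10, edgeR adjusted p = 0.587). In the LYS group against the control group the same 3 genes led, with log2 fold changes of -3.74, 2.14 and 0.90, and 2 were called higher and 1 lower. From IMQ to LYS the smallest p belonged to Cul3, the ubiquitin ligase scaffold that works with KEAP1 (-0.69, edgeR adjusted p = 0.0606, called by DESeq2), and Rbx1, its RING partner (-0.33, edgeR adjusted p = 0.118).

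On the list of glutathione synthesis, reduction and peroxidases, 2 of 13 tested genes were called higher and 7 lower in the IMQ group (median -0.77). Slc7a11, the cystine carrier of system xc and an NRF2 target, rose from 5.29 ± 3.09 to 422 ± 67.4 CPM, or 6.38 on the log2 scale (SE 0.44, edgeR adjusted p = 2.5e-05). Its LYS libraries were at 266, 255 and 51.5 CPM, with LYS 3 the lowest, and 5.20 above the control group on the log2 scale (edgeR adjusted p = 0.00287). Ggt1, which breaks down extracellular glutathione, went from 9.77 ± 4.05 to 0.281 ± 0.436 CPM. It had 600 counts in all over the control libraries, 12 over the IMQ libraries, 11 of them in IMQ 2, and 8 over the LYS libraries. As it passed the filter through the control libraries alone, it could only be lower, and its place among the genes called lower is a description. The peroxidase gene Gpx8 fell by 2.66 (edgeR adjusted p = 2.1e-04). Gclc, the catalytic partner of Gclm, also fell in the IMQ group (-0.81, edgeR adjusted p = 0.00339) and was chosen after its value was seen. In the LYS group against the control group 2 of 13 were called higher, Slc7a11 and the peroxidase gene Gpx1 (1.53), and 6 lower, Ggt1 among them. Between LYS and IMQ the smallest p were those of the peroxidase genes Gpx7 (1.10, edgeR adjusted p = 0.0612) and Gpx3 (1.13, edgeR adjusted p = 0.0839), both called by DESeq2.

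Glutathione transferases join glutathione to electrophiles, and many are NRF2 targets. In the IMQ group 6 of 21 tested genes were called higher and 10 lower (median -0.76). Gsta1 rose from 2.23 ± 0.853 to 16.9 ± 1.13 CPM (2.98, edgeR adjusted p = 1.0e-04), Gsto1 from 30.3 ± 2.38 to 203 ± 37.6 (2.80, edgeR adjusted p = 1.4e-05) and Gsta2 from 2.50 ± 0.494 to 13.2 ± 0.870 (2.46, edgeR adjusted p = 5.8e-05). Gsta1 and Gsta2 are near-identical copies, and how reads were split between them is uncertain. Against the control group, 4 of 21 were called higher and 5 lower in the LYS group, led by Gsta1 (1.98), Gsto1 (1.83) and Gstm7 (-1.54, lost without each of control 1, control 2 and LYS 2, with adjusted p from 0.00157 to 0.0640). With 1 library left out the counts were 2 higher and 1 lower without control 1, 2 and 2 without control 2, 2 and 5 without control 3, and 3 and 2 without LYS 2. From IMQ to LYS, Gsta2 (-1.26) and Gsto1 (-0.92) had the smallest p, each with the edgeR adjusted p of 0.0591 that was the smallest of any gene, and both were called by DESeq2.

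In the thioredoxin and peroxiredoxin system, to which Txnrd1 and Srxn1 belong, 5 of 15 tested genes were called higher and 4 lower in the IMQ group (median 0.14). Glrx, a glutaredoxin gene, rose from 94.5 ± 10.3 to 1938 ± 518 CPM (4.42, edgeR adjusted p = 1.6e-05), Sesn2, a stress-induced sestrin, from 17.3 ± 0.856 to 90.8 ± 15.3 (2.45, edgeR adjusted p = 1.7e-05) and the peroxiredoxin gene Prdx5 from 214 ± 5.62 to 793 ± 208 (1.95, edgeR adjusted p = 1.7e-04). The LYS group had 3 of 15 genes called higher than control and 1 lower, with Glrx at 3.26, Sesn2 at 1.91 and Prdx4, the peroxiredoxin of the endoplasmic reticulum, at -1.03. Without LYS 3, 2 were lower. Prdx4 (0.84) and Prdx6 (-0.66) had the smallest p between LYS and IMQ, both with an edgeR adjusted p of 0.0591 and both called by DESeq2.

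Enzymes that supply NADPH feed the reductases of both systems. In the IMQ group 3 of 9 tested genes were called higher and 3 lower (median -0.08). H6pd of the endoplasmic reticulum fell from 125 ± 45.5 to 31.2 ± 11.9 CPM (-1.94, edgeR adjusted p = 0.00159) and the isocitrate dehydrogenase gene Idh1 from 241 ± 52.5 to 101 ± 18.5 (-1.20, edgeR adjusted p = 0.00116), while the malic enzyme gene Me1 rose from 275 ± 42.8 to 574 ± 23.1 (1.12, edgeR adjusted p = 5.3e-04). Between LYS and control, edgeR called 0 higher (1 at an unadjusted p under 0.05 and 0 by DESeq2) and 2 lower, Tkt (-1.01), the transketolase gene, and Idh1 (-0.97). From IMQ to LYS the smallest p were those of H6pd (1.44, edgeR adjusted p = 0.0591) and Me1 (-1.10, edgeR adjusted p = 0.0686), both called by DESeq2.

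Nqo1 belongs with genes of quinone and carbonyl reduction, conjugation and export, of which 11 of 28 tested were called higher and 11 lower in the IMQ group (median -0.01). The carbonyl reductase gene Cbr3 rose from 27.4 ± 2.39 to 118 ± 17.9 CPM (2.16, edgeR adjusted p = 2.4e-05) and the aldehyde dehydrogenase gene Aldh3b2 from 66.1 ± 4.70 to 263 ± 15.6 (2.05, edgeR adjusted p = 1.5e-05), and the sulfotransferase gene Sult1a1 fell from 63.7 ± 28.6 to 18.0 ± 4.76 (-1.76, edgeR adjusted p = 0.00273). Nqo2, the relative of Nqo1, went the opposite way (-1.41, edgeR adjusted p = 8.7e-04) and was chosen after its value was seen. In the LYS group 7 were called higher than control and 3 lower, led by Cbr3 (1.45), Ugt1a1 (-1.33), a glucuronosyltransferase gene with 33 counts in all over the LYS libraries, and the exporter gene Abcc3 (1.27). The Ugt1a1 call was lost without each of control 1, control 2, control 3, LYS 2 and LYS 3 and in 7 of 12 alternatives in all, with adjusted p from 0.0165 to 0.13. The lower count of this list was 1 without any single control library or without LYS 2. Between LYS and IMQ, Cbr2 (1.17) and Ugdh (0.85), the enzyme that makes UDP-glucuronate, had the smallest p, with an edgeR adjusted p of 0.0591 each, and both were called by DESeq2.

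Around Hmox1, 1 of 15 tested genes was called higher and 6 lower on the list of haem and iron handling in the IMQ group (median -0.36). Trf, the transferrin gene, fell from 771 ± 419 to 103 ± 50.6 CPM (-2.84, edgeR adjusted p = 0.00130), and Hp, which encodes haptoglobin, the binder of free haemoglobin, from 986 ± 387 to 165 ± 90.2 (-2.51, edgeR adjusted p = 0.00201). Cd163, the receptor for haptoglobin-haemoglobin that is also on the macrophage marker list, fell from 147 ± 5.34 to 65.5 ± 31.8 (-1.10, edgeR adjusted p = 0.0148, lost without IMQ 2, with adjusted p from 3.3e-04 to 0.0554). LYS skin had 1 called higher than control, the ferritin gene Fth1 (0.75, lost without each of control 1, control 2, control 3 and LYS 2 and in 6 of 12 alternatives in all, with adjusted p from 4.7e-04 to 0.112), and 2 lower, the iron exporter gene Slc40a1 (-1.09, lost without LYS 2, with adjusted p from 4.1e-04 to 0.0553) and Fech, the last enzyme of haem synthesis (-0.68, lost without each of control 1, control 2 and LYS 2 and in 4 of 12 alternatives in all, with adjusted p from 0.00450 to 0.0719). The higher count in the IMQ group was 0 without control 1, control 3, IMQ 2 or IMQ 3. Between LYS and control it was 0 without any single control library or LYS 2 and 3 without LYS 1, and the lower count was 1 without control 1 or control 2 and 0 without LYS 2. From IMQ to LYS, Hp (2.48) and Slc40a1 (-1.24) had the smallest p, with an edgeR adjusted p of 0.0591 each, and both were called by DESeq2.

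Of the partners and cofactors of AHR, 3 of 11 tested genes were called higher and 2 lower in the IMQ group (median 0.21). The higher count is near the share of all genes called higher, 24.1%. Hif1a, which shares the partner ARNT, rose from 85.7 ± 8.31 to 317 ± 36.0 CPM (1.95, edgeR adjusted p = 3.2e-05). The chaperone gene Hsp90aa1 fell from 273 ± 35.1 to 127 ± 5.16 (-1.04, edgeR adjusted p = 3.5e-04) and Arnt2 from 4.63 ± 0.649 to 2.45 ± 0.573 (-0.85, edgeR adjusted p = 0.0245, lost without each of control 2, control 3 and IMQ 3 and in 4 of 12 alternatives in all, with adjusted p from 0.00541 to 0.0778). Arnt, named for its role and outside the rule, was at -0.08 and not called. In the LYS group 2 were called higher than control, Hif1a (1.62) and Relb (0.68, under the fold threshold with library totals only), an NF-kappaB subunit that can bind AHR, and 1 lower, Hsp90aa1 (-0.58, lost without each of control 1, control 3, LYS 2 and LYS 3 and in 5 of 12 alternatives in all, with adjusted p from 0.00736 to 0.113). The lower count in the IMQ group was 1 without control 2, control 3 or IMQ 3. Without LYS 3, the LYS group had 4 higher and 0 lower than control by edgeR. Relb (0.49, edgeR adjusted p = 0.0591) and Hsp90aa1 (0.51, edgeR adjusted p = 0.0619) also had the smallest p between LYS and IMQ, and neither was called by DESeq2.

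Of the list of other AHR-induced genes and enzymes of AHR ligands, 15 of 20 genes passed the filter in the IMQ comparison, and 9 were called higher and 1 lower (2 without IMQ 1). Il22 and Il17a passed through the IMQ libraries alone, so they could only be higher, and the counts are a description. The cytokine gene Il22 had 0 counts in the control libraries and 51 in all over the IMQ libraries, which is at least 7.64-fold higher when the control libraries are set to 3 counts each. Its LYS libraries held 32, 46 and 5 counts, at least 11.8-fold higher on the same floor, and the filter left Il22 and Il17a out of the edgeR fit of LYS against control. Il17a had 1 count in all over the control libraries and 97 over the IMQ libraries, and Ereg, an epidermal growth factor family ligand, rose from 26.6 ± 11.9 to 158 ± 40.0 CPM (2.63, edgeR adjusted p = 4.3e-04). Tiparp, a direct AHR target and feedback inhibitor, was chosen after its value was seen, and was higher by 0.98 (edgeR adjusted p = 0.00777). By edgeR LYS skin had 3 of 13 called higher than control, Fos (2.25), Kynu (1.78), an enzyme of tryptophan breakdown, and Areg (1.52, lost without each of control 1 and control 2, with adjusted p from 7.1e-04 to 0.0762), and 1 lower. The higher count was 5 without LYS 3, 8 with DESeq2, 8 without the low-count filter and 7 with all 9 libraries in 1 fit, and the lower count was 2 without LYS 1. Serpinb2 (-0.86) and Nedd9 (0.81) had the smallest p between LYS and IMQ, with an edgeR adjusted p of 0.0591 each, and both were called by DESeq2.

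For the removal of superoxide and peroxide, edgeR called 0 of 9 tested genes higher in the IMQ group (2 at an unadjusted p under 0.05 and 0 by DESeq2) and 5 lower (median -0.82). Sod3, the extracellular superoxide dismutase gene, fell from 122 ± 45.1 to 25.5 ± 12.5 CPM (-2.20, edgeR adjusted p = 0.00160), the cytosolic Sod1 from 167 ± 43.6 to 43.9 ± 9.11 (-1.86, edgeR adjusted p = 2.5e-04) and the metallothionein gene Mt1 from 426 ± 43.4 to 114 ± 17.4 (-1.84, edgeR adjusted p = 5.7e-05). Between LYS and control, 2 were called lower, with Sod1 at -0.88 (lost without each of control 1, control 2, LYS 1 and LYS 2 and in 5 of 12 alternatives in all, with adjusted p from 0.0132 to 0.162), and 0 higher (0 at an unadjusted p under 0.05 and 0 by DESeq2). The lower count was 0 without control 1, control 2 or LYS 1 and 1 without LYS 2. Sod3 (2.10, edgeR adjusted p = 0.0591) and Sod1 (1.05, edgeR adjusted p = 0.0644) had the smallest p between LYS and IMQ, both called by DESeq2.

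Of the enzymes that produce oxidants, 6 of 16 tested genes were called higher and 4 lower in the IMQ group (median 0.25). The myeloperoxidase gene Mpo, which is also on the neutrophil marker list, went from 3.98 ± 1.15 to 0.167 ± 0.149 CPM, on 246 counts in all over the control, 7 over the IMQ and 34 over the LYS libraries. It passed the filter through the control libraries, so it could only be lower, and the lower counts of this list, which include it, are a description. The dual oxidase gene Duox1 rose from 8.26 ± 1.19 to 50.2 ± 11.5 (2.66, edgeR adjusted p = 3.6e-05) and Duoxa1, its maturation factor, from 6.98 ± 0.592 to 73.2 ± 13.0 (3.45, edgeR adjusted p = 8.8e-06). Between LYS and control, 9 of 16 were called higher and 2 lower, with Duoxa1 at 2.75 and Duox1 at 2.46. Both lower genes, 1 of them Mpo, passed the filter through the control libraries. The lower count in the IMQ group was 2 without control 1, control 2, IMQ 2 or IMQ 3. For LYS against control it was 0 without any single control library and 1 without LYS 1 or LYS 2. Nox4 (1.98, edgeR adjusted p = 0.0606) and Cybb (1.71, edgeR adjusted p = 0.0644), the NADPH oxidase subunit of phagocytes, had the smallest p between LYS and IMQ, both called by DESeq2.

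Markers of the cell types of skin moved with these results, and their part in them was not tested. They are given as FPKM summed over each list, without TMM scaling, and none of the listed markers was at 0 in all libraries. The edgeR calls of markers used TMM-scaled counts, so sums can overlap between groups where markers were called. The keratinocyte list, with Krt14 the most abundant, summed to 2181, 2013 and 3657 in the control libraries, 12228, 13015 and 13892 in the IMQ libraries and 10864, 6809 and 6985 in the LYS libraries. Keratinocyte markers were thus highest in the IMQ libraries without overlap, and 4 of 4 were called higher in each treated group than in control. Among all genes tested against control, 24.1% were called higher and 26.9% lower under IMQ, and 15.1% and 12.9% under LYS. The calls of every marker list against control are read beside these shares. The fibroblast list, led by Col1a1, summed to 2952, 3592 and 3619 in the control libraries, 1182, 453 and 335 in the IMQ libraries and 1107, 1917 and 2342 in the LYS libraries. Of its 6 markers, against control 6 were called lower under IMQ and 2 under LYS. Endothelial markers, led by Pecam1, summed to 95.7, 101 and 77.3 in the control, 46.3, 24.2 and 20.1 in the IMQ and 47.5, 90.5 and 105 in the LYS libraries. Of these, 5 of 5 were called lower in the IMQ group than in control, and in the LYS group 0 were called by edgeR, 0 were past an unadjusted p of 0.05 and 0 were called by DESeq2.

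Among immune cells, the macrophage list, led by Adgre1, summed to 292, 226 and 211 FPKM in the control, 141, 107 and 97.3 in the IMQ and 178, 410.1 and 489 in the LYS libraries. The LYS libraries differed widely, with LYS 2 and LYS 3 above every other library. In the IMQ group 2 of 6 markers were called lower than in control, against 26.9% of all genes. Under LYS edgeR called 0, while 2 were higher at an unadjusted p under 0.05 and DESeq2 called 1 higher. The neutrophil list, led by Retnlg, summed to 12.4, 9.92 and 10.8 FPKM in the control, 76.2, 358 and 92.0 in the IMQ and 113, 114 and 61.6 in the LYS libraries, and 4 of 5 tested markers were called higher and 1, Mpo, lower in each treated group. The T cell list, led by Cd3g, summed to 2.95, 2.35 and 2.84 in the control, 5.47, 2.67 and 4.05 in the IMQ and 7.89, 10.2 and 8.07 in the LYS libraries, with 3 and 4 of 5 called higher than control. In the control libraries these T cell sums were the lowest of all the marker lists, while in the LYS libraries they were above the hair follicle sums. The Langerhans cell list, led by Cd74, summed to 381, 294 and 407 in the control, 360.0, 282 and 432 in the IMQ and 442, 378 and 401 in the LYS libraries, with 2 of 3 called higher under IMQ and 0 under LYS by edgeR, by DESeq2 or at an unadjusted p under 0.05. Its groups overlapped.

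Hair follicle markers, led by Krt71, summed to 1732, 1070.1 and 2465 FPKM in the control, 5.27, 5.00 and 4.01 in the IMQ and 5.07, 5.82 and 2.21 in the LYS libraries, and 6 of 6 were called lower in each treated group. Of these, 4 were left out of the fit of LYS against IMQ by the filter, so they passed through the control libraries alone, could only be lower and are a description. Sebocyte markers, led by Scd1, summed to 2211, 3387 and 1225 in the control, 268, 74.5 and 67.5 in the IMQ and 299, 274 and 436 in the LYS libraries, with 6 and 4 of 6 called lower than control. Both lists thus separated the control libraries from all others. Adipocyte markers, led by Cidec, summed to 1151, 1744 and 659 in the control, 175, 60.6 and 34.9 in the IMQ and 182, 346 and 572 in the LYS libraries, with 4 of 4 called lower in each treated group. Skeletal muscle markers, led by Acta1, summed to 5415, 5456 and 5138 in the control, 1695, 1368 and 664 in the IMQ and 1939, 2429 and 3602 in the LYS libraries, with 5 and 3 of 5 called lower. Within the LYS group, muscle and fat sums were nearest to control in LYS 3. Erythroid markers, led by Hbb-bs, summed to 1314, 994 and 523 in the control, 172, 320.0 and 147 in the IMQ and 932, 941 and 627 in the LYS libraries, with 5 of 5 called lower under IMQ and 0 under LYS by edgeR, where 1 was lower by DESeq2 and at an unadjusted p under 0.05. Melanocyte markers, led by Pmel, summed to 72.8, 63.9 and 110.2 in the control, 7.41, 5.28 and 3.30 in the IMQ and 4.31, 7.18 and 8.54 in the LYS libraries, with 4 of 4 called lower in each treated group. Between the LYS and IMQ groups 0 markers of these 13 lists were called by edgeR. At an unadjusted p under 0.05, the LYS group was higher for 6 of 6 macrophage, 5 of 5 erythroid, 4 of 6 fibroblast, 4 of 5 endothelial, 2 of 4 adipocyte, 2 of 5 skeletal muscle, 1 of 6 sebocyte and 1 of 5 T cell markers, and lower for 2 of 4 keratinocyte and 1 of 3 Langerhans cell markers. Of the 4 neutrophil markers tested 1 was higher and 1 lower, and 0 passed among the 4 melanocyte markers and the 2 of 6 hair follicle markers that were tested. DESeq2 called the same numbers, apart from 5 macrophage and 0 skeletal muscle markers. Of all genes, 19.3% were higher and 15.9% lower at that unadjusted p, and DESeq2 called 13.3% higher and 9.49% lower. The counts of 1 of 6 sebocyte and 1 of 5 T cell markers lie near the share at the unadjusted p.

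The genes with the most similar pattern were found as the smallest root mean square difference of log2(FPKM + 1) over the 9 libraries, each gene centred on its mean, among 12940 genes with a mean FPKM of at least 1. This measure is a difference on the log2 scale, and values near 0 mean like patterns. For Nfe2l2 they were Abca7 (0.0507) and Sirt7 (0.0693), for Gclm Glrx3 (0.0419) and Mrps22 (0.0436) and for Srxn1 Rfng (0.0842) and Zfand2a (0.0924). Nqo1 was nearest to Gm45838 (0.108) and Prickle3 (0.154), Hmox1 to Gm12751 (0.168) and 2310033P09Rik (0.177) and Txnrd1 to Chmp2b (0.138) and Ppdpf (0.144). Of the AHR genes, Ahrr was nearest to Gpi1 (0.0709) and Prkd2 (0.0743), Cyp1a1 to Gm38910 (0.179) and Zfp955a (0.188) and Cyp1b1 to H2bc21 (0.0881) and Vbp1 (0.0921). The differences also depend on each gene's own spread and level and are not ranked between members, and they say nothing of shared function or control.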

How the data were processed

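RNA of 9 back skin libraries was sequenced (TRIzol extraction, NEBNext Ultra kit, Illumina HiSeq). The authors deposited raw counts per Ensembl gene, and their notes name GRCm38, HISAT2 and HTSeq 0.13.5. The authors also deposited FPKM, per length and library total, whose implied gene length is within 1 base of the GENCODE M21 merged exon length for 98.4% of 29128 genes. Counts were fitted in edgeR 4.0.16 (limma 3.58.1, R 4.3.3) for each pair of groups, with 6 libraries, filterByExpr, TMM and the quasi-likelihood F test, and p adjusted by Benjamini-Hochberg over all genes tested. A call needed an adjusted p under 0.05 and a log2 fold change over 0.58 in size. Alternatives were DESeq2 1.42.0, RLE size factors, library totals only, no low-count filter, all 9 libraries in 1 fit, a replicate block, other thresholds, and each library left out.

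The genes named are the 10 members. They also include, for each pathway list and comparison, up to 3 called genes with the largest absolute log2 fold change and groups that do not overlap, or the 2 with the smallest p where none was called. The 2 genes most similar to each member, which for Ahr are not reported here, and the most abundant gene of each marker list are also named. A few more, such as Keap1 and Arnt, were named for their role or after their values were seen, which the text says at each. Members and lists were chosen with earlier results of these data known. Promoter sequences are from RefSeq, GRCm38.p6. Bounds for genes without counts cover counting error only.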

Additional observations from a re-analysis of the deposited data

How the results depend on the processing

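Each of the 10 genes was refitted under 12 alternatives in each comparison. In the IMQ group against control, 117 results kept their direction and side of the thresholds, 2 lost a call and 1 gained one. Cyp1b1 alone lost its call without IMQ 1, which left 1 gene called lower, against 2 without any other library, and 0 were called lower with an absolute log2 fold change over 1. Between LYS and control, 107 results kept both, 11 lost a call and 2 gained one. The number called higher ran from 1 (without control 1) to 6 (without LYS 3) with 1 library left out, against 5 with all, and was 2 without control 3. With library totals only, 1 gene was called lower. Genes called in all went from 2579 (without control 1) to 5072 (without LYS 3), with 2947 without control 2 and 2926 without LYS 2, and were 2910 with an absolute log2 fold change over 1.

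Between LYS and IMQ, 115 results kept both, 2 gained a call and 3 reversed. The reversed log2 fold changes were those of Gclm (0.0891) and Ahr (0.0660) with library totals only, and of Ahrr with 1 library left out, which ran from -0.0148 (without LYS 1) to 0.444 (without LYS 3). Hmox1 was the 1 gene called lower with DESeq2, and 1 was called lower at an adjusted p under 0.1. With 1 library left out, 0 or, without IMQ 1, 1 was called lower. Over all genes, 0 were called, against 3345 with DESeq2, 2419 without a low-count filter, 3040 with all 9 libraries in 1 fit and 3252 at an adjusted p under 0.1. With 1 library left out the number went from 0 to 4262 (without LYS 1), and it was 1873 without IMQ 1. The cause was not tested.

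With a replicate block 0 genes were called between LYS and IMQ (smallest adjusted p 0.220), and Ahrr lost its call between LYS and control (edgeR adjusted p = 0.0540, in a range from 0.00241 to 0.0836). Same-numbered libraries correlated with r from -0.460 to 0.202 over 9 pairs, with 1 over 0.1. The r of a library with another group offset each other, as for IMQ 1 with control 1 (0.00784), control 2 (0.221) and control 3 (-0.219). These values therefore cannot show or exclude a pairing by number. The numbers were not read as pairing samples in the main fit.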
